A study of Homo sapiens with 12 samples.

Results

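The mature microRNAs (miRNAs) of HEK293T cells were measured in 6 control siRNA libraries, which were all the control libraries among the 12 of the series and were chosen by label. HEK293T is a line grown from human embryonic kidney, immortal and carrying SV40 large T antigen. Every cell pellet had been transiently transfected with a control siRNA, and the libraries of the siRNA against the endonuclease Tudor-SN, the subject of the study, were not used. In run 1, 3 short RNA libraries were made from RNA fractions enriched in molecules under 200 nucleotides, purified as cDNA from polyacrylamide and read on a NextSeq. In run 2, 3 total RNA libraries were made from total RNA, purified as cDNA on a Pippin Prep and read on a HiSeq. Both followed the TruSeq small RNA protocol, which joins an adapter to each end of the RNA, and amplified the cDNA for 12 cycles. Run, RNA fraction, size selection, sequencer and the authors' read processing coincided, so they cannot be told apart in any difference below. The labels do not say that replicates were separate cultures, so the p-values rest on a spread between libraries that may be technical.

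A miRNA gene is transcribed into a long primary RNA, from which Drosha and then Dicer cut a short duplex. A duplex strand is loaded onto Argonaute and becomes the guide, and its partner, the passenger, usually decays. The 5′ arm of the hairpin gives the -5p product and the 3′ arm the -3p product. The seed, bases 2 to 8 from the 5′ end, does most of the pairing with target mRNAs, so miRNAs of a shared seed are grouped as a family. Adapter ligation is known to work better on some RNA ends than on others, so a share of counts is not a share of molecules.

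The sequences on which the results turn are mature miRNAs from RefSeq on GRCh38.p14, each written from its 5′ end with the seed in capitals. They are the abundant miRNAs whose place in the ranking differed and the families whose members moved together or apart. The first is the most abundant miRNA of all 6 libraries and the others had very unequal ranks in the preparations.
miR-10a-5p: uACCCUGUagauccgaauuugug
miR-183-5p: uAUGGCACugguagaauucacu
miR-22-3p: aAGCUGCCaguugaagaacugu
miR-191-5p: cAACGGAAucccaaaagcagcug
miR-4454: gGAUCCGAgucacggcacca

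The next 2 families, that of miR-148 and miR-152 and that of miR-99 and miR-100, had tested members that were all higher in short RNA. For miR-152-3p and miR-100-5p that direction was fixed by how they entered the test, as set out below.
miR-148a-3p: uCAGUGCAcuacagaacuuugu
miR-148b-3p: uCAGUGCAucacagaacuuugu
miR-152-3p: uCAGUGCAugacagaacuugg
miR-99a-5p: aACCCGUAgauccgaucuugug
miR-99b-5p: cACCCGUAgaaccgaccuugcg
miR-100-5p: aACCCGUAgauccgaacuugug

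The miR-181 family and that of miR-130, miR-301 and miR-454 had tested members that were all lower in short RNA. For miR-181c-5p, miR-301a-3p and miR-301b-3p that direction was likewise fixed by how they entered the test.
miR-181a-5p: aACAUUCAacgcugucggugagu
miR-181b-5p: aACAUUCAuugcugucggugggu
miR-181c-5p: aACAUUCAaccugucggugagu
miR-181d-5p: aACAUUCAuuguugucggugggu
miR-130b-3p: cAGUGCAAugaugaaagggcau
miR-301a-3p: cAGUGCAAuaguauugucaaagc
miR-301b-3p: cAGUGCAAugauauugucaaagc
miR-454-3p: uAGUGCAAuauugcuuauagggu

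The families of miR-25 and miR-92, of miR-17, of miR-15 and miR-16 and of let-7 had members that went both ways, and miR-27a-3p and miR-27b-3p differ at a single base.
miR-92a-3p: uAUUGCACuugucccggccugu
miR-92b-3p: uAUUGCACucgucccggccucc
miR-25-3p: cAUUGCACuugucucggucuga
miR-17-5p: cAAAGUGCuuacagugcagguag
miR-20a-5p: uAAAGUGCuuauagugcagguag
miR-93-5p: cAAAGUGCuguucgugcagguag
miR-106b-5p: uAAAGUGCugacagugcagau
miR-15a-5p: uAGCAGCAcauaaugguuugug
miR-15b-5p: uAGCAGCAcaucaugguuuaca
miR-16-5p: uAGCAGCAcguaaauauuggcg
let-7a-5p: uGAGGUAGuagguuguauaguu
let-7f-5p: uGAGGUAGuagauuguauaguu
miR-27a-3p: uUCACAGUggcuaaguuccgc
miR-27b-3p: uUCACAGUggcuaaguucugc

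On GRCh38.p14 miR-183-5p is at chr7:129774967-129774988, miR-22-3p at chr17:1713914-1713935, miR-191-5p at chr3:49020672-49020694 and miR-4454 at chr4:163093607-163093626, all on the minus strand. miR-152-3p is at chr17:48037174-48037194 on the minus strand, within an intron of COPZ2. miR-99a-5p is at chr21:16539101-16539122 on the plus strand, within an intron of the long noncoding RNA gene MIR99AHG. miR-92a-3p, miR-16-5p, miR-181a-5p, miR-181b-5p, let-7a-5p and let-7f-5p come from more than a single hairpin locus each, and their loci cannot be told apart by the mature sequence.

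Counts assigned to miRNAs totalled 222452 to 270191 in the short RNA libraries and 927727 to 1653077 in the total RNA libraries. Levels are given as CPM, a count scaled to a fixed library total. Where no count was seen in a preparation, up to 3 counts over its libraries remain possible, for counting error only, and bounds are set against those 3 counts. Of 2588 listed entries, 444, 465 and 434 had at least 1 count in the short RNA libraries, against 707, 789 and 742 in the total RNA libraries. At a common depth of 200000 counts the expected numbers were 425.4 ± 5.21 in short RNA and 495.3 ± 6.13 in total RNA (SD, n = 3 each), and an exact permutation test, two-sided, gave p = 0.1, the smallest it allows for 3 against 3. CPM values are scaled by edgeR's TMM method and, where not per library, are mean ± SD over 3 libraries. Ratios of summed counts and the bounds use library totals scaled in the same way, so they too depend on the scaling.

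In both preparations control HEK293T cells were dominated by the miR-10 pair. The hairpin of miR-10a-5p lies in the HOXB cluster on the minus strand at chr17:48579838-48579947. miR-10a-5p took 55.8%, 56.0% and 57.5% of the counts in short RNA and 35.6%, 34.3% and 36.1% in total RNA. No short RNA library overlapped a total RNA library. miR-10b-5p, its near-identical relative from the HOXD cluster, took 16.4% ± 1.07 in short RNA and 17.9% ± 0.597 in total RNA. The 10 most abundant miRNAs held 88.9% ± 0.397 of counts in short RNA and 83.0% ± 0.488 in total RNA. To reach 90% of the counts took 12, 12 and 11 miRNAs in short RNA, against 21, 22 and 21 in total RNA. The effective number of miRNAs, the exponential of the Shannon entropy, was 7.11 ± 0.21 in short RNA and 12.6 ± 0.439 in total RNA. Without miR-10a-5p it was 18.7 ± 0.726 in short RNA and 18.4 ± 0.435 in total RNA, with overlapping libraries (exact permutation p = 0.5). The evenness of the remaining miRNAs thus did not differ beyond the spread between libraries.

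**Figure D1:**
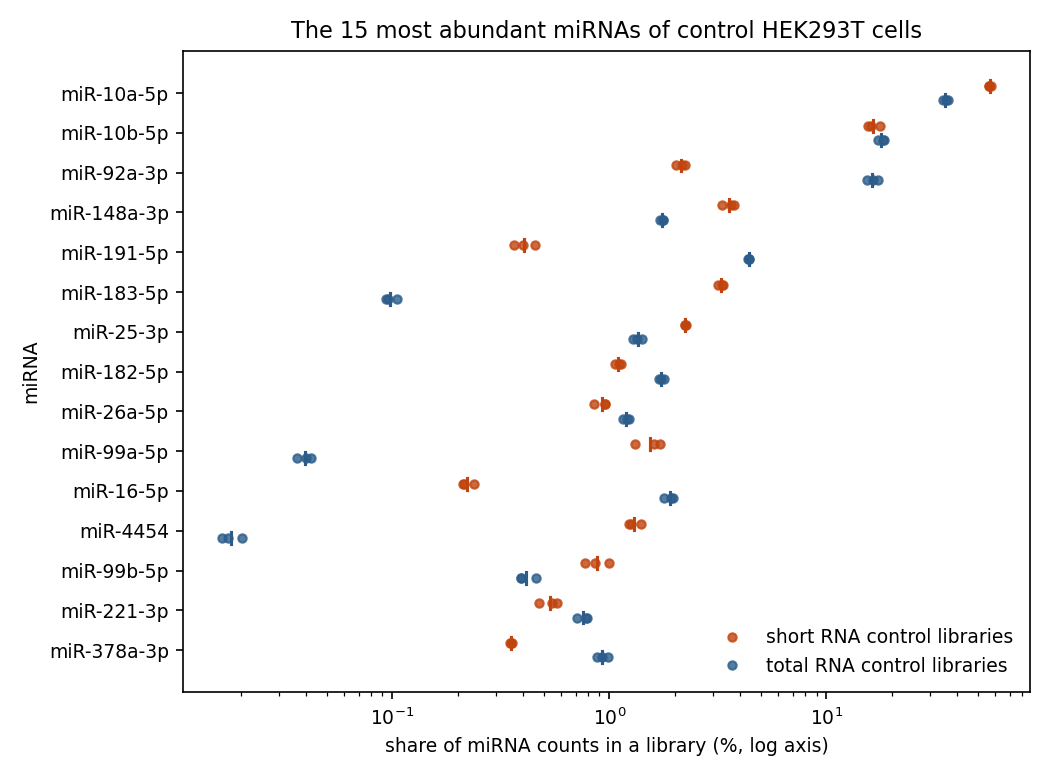
Share of each library's miRNA counts (%, log axis) for the 15 miRNAs with the highest mean of the group means, with a point per library and a bar at each group mean. miR-10a-5p and miR-10b-5p lead in both preparations, while miR-183-5p, miR-99a-5p and miR-4454 lie far to the right in short RNA and miR-92a-3p, miR-191-5p and miR-16-5p far to the right in total RNA.

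The lists of the 10 most abundant miRNAs shared 7. miR-183-5p, miR-99a-5p and miR-4454 were in that of short RNA alone, and miR-16-5p, miR-191-5p and miR-22-3p in that of total RNA alone. Both preparations shared 13 of their top 20, 31 of their top 50 and 68 of their top 100. miR-22-3p was the widest gap among them, at rank 168 in short RNA and rank 9 in total RNA. miR-183-5p was at rank 4 in short RNA and rank 46 in total RNA, while miR-99a-5p was at rank 7 in short RNA and rank 85 in total RNA. miR-4454 was at rank 8 in short RNA and rank 119 in total RNA.

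Of 302 miRNAs tested, 241 (79.8%) passed an adjusted p of 0.05 in edgeR's quasi-likelihood test with Benjamini-Hochberg adjustment. Of these 107 (35.4%) were higher and 134 (44.4%) lower in short RNA. A difference of at least 2-fold was called for 201 miRNAs (66.6%), 93 of them higher and 108 lower. The libraries of the preparations did not overlap for 244 of the 302 (80.8%). The median log2 fold change, short over total RNA, was -0.18. With library size alone as the scaling it was -0.67, with 95 miRNAs higher and 160 lower, so differences of that size depend on the scaling. Most were larger: the median absolute log2 fold change was 1.86, or 3.62-fold, and 99 miRNAs differed at least 8-fold.

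How a miRNA entered the test bears on its call. The test's filter asked for at least 16.7 CPM in at least 3 libraries. Of the 302, 169 reached it in every library of both preparations, and of these 64 were higher and 68 lower, with a median log2 fold change of -0.01. A further 43 reached it in all 3 short RNA libraries but not in all 3 total RNA libraries, and all 43 were called higher. Another 86 reached it in all 3 total RNA libraries but not in all 3 short RNA libraries, and 66 were called lower. Where no library of the other preparation reached it, entry fixes the direction that a call can take, and elsewhere entry favours a direction. Nothing about direction is thus read from these counts.

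Abundant miRNAs also differed widely. Across the 302 miRNAs, mean log levels of the preparations had Pearson's r = 0.60 and Spearman's rho = 0.53. For the 150 miRNAs with a mean of at least 100 CPM these were 0.45 and 0.37. For the 50 of at least 1000 CPM they were 0.36 and 0.17. A cut on the mean level narrows the range, which by itself lowers r and rho, so their fall is not read as poorer agreement. The median absolute log2 fold change was 1.86 for the 302, 1.90 for the 150 and 1.65 for the 50. These are descriptions across miRNAs of the same 6 libraries, without a p-value. Among the 50, 47 passed the test, 33 of them at least 2-fold, and 13 differed at least 8-fold. Between libraries of the same preparation, rho was 0.962 to 0.964 in short RNA and 0.991 to 0.994 in total RNA, and across preparations it was 0.524 to 0.538.

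**Figure D2:**
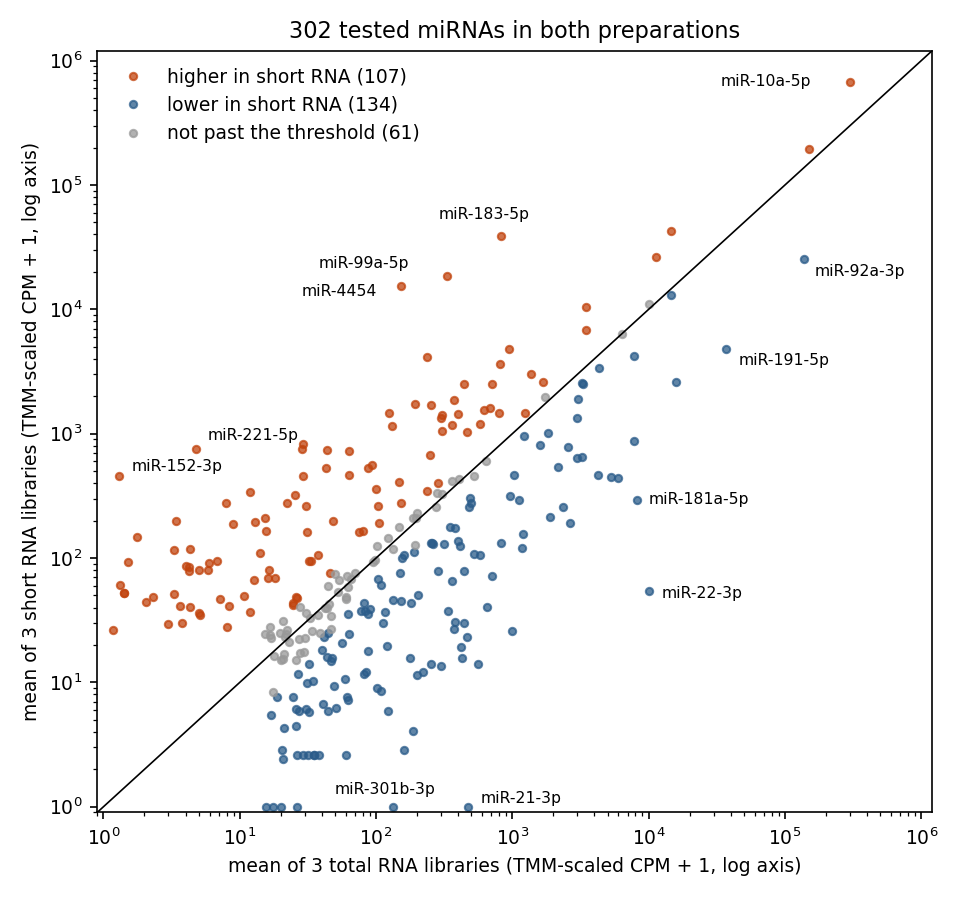
Mean TMM-scaled CPM plus 1 of the 3 short RNA libraries (vertical, log axis) against that of the 3 total RNA libraries (horizontal, log axis) for the 302 tested miRNAs, with the line of equal level. Orange points (107) were higher and blue points (134) lower in short RNA. miR-10a-5p is at the top right, and the points fan out widely to both sides at every level.

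Among abundant miRNAs, several of the guide strands that rank high in one preparation were minor in the other. miR-183-5p had 37270, 38890 and 40300 CPM in the short RNA libraries, against 793.2, 867.3 and 815.8 CPM in the total RNA libraries. That was 46.9-fold higher (log2 5.55 ± 0.08 SE, edgeR adjusted p = 9.96e-30). It is encoded with miR-96 and miR-182 in a single cluster on chromosome 7 and is known from sensory organs and epithelial cancers. miR-99a-5p, of the miR-99 and miR-100 family, had 15470, 18660 and 20990 CPM in short RNA, against 307.2, 348.0 and 343.5 CPM in total RNA. Its fold was 54.9 (log2 5.78 ± 0.10 SE, edgeR adjusted p = 1.83e-27).

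miR-22-3p showed the opposite. It had 38.1, 60.4 and 60.5 CPM in the short RNA libraries, from 8, 14 and 11 counts, against 9738, 10610 and 9955 CPM in the total RNA libraries. That was 190-fold lower in short RNA (log2 -7.57 ± 0.13 SE, edgeR adjusted p = 7.84e-28). miR-191-5p, a broadly expressed miRNA from an intron of DALRD3, had 4265, 5275 and 4897 CPM in short RNA and 36700, 36380 and 37470 CPM in total RNA. It was 7.65-fold lower in short RNA. miR-186-5p averaged 463.3 ± 60.9 CPM in short RNA and 4280 ± 51.3 CPM in total RNA. miR-1271-5p went the other way, with 4168 ± 204 CPM in short RNA and 234.1 ± 19.0 CPM in total RNA. It was chosen for mention, as was miR-186-5p, after its values were seen, as a miRNA in the top 20 of one preparation alone.

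Several of the most abundant miRNAs had close levels after TMM scaling. miR-182-5p averaged 13060 ± 656.7 CPM in short RNA and 14620 ± 642.9 CPM in total RNA, a small call that was lost with upper quartile scaling and changed sign with a higher count minimum. miR-26a-5p averaged 10940 ± 865.1 CPM in short RNA and 10070 ± 287.9 CPM in total RNA (edgeR adjusted p = 0.111). It was called lower with library size alone (log2 -0.38) and higher with a mean of at least 50 counts (log2 0.52). miR-221-3p averaged 6289 ± 480.8 CPM in short RNA and 6390 ± 306.4 CPM in total RNA (edgeR adjusted p = 0.787). It too was called lower with library size alone (log2 -0.52) and higher with a mean of at least 50 counts (log2 0.38). The direction of such small differences thus depends on the scaling and on which miRNAs are scaled together. miR-10b-5p, at 195100 ± 10240 CPM in short RNA and 151000 ± 7710 CPM in total RNA, was called higher by 0.37 on the log2 scale, and lower by library size alone.

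The largest increases among miRNAs of at least 20 CPM were mostly of miRNAs nearly uncounted in total RNA. miR-152-3p, from an intron of COPZ2, had 110, 107 and 71 counts in the short RNA libraries, against 1, 0 and 0 in the total RNA libraries. On summed counts per TMM-scaled library total this was a ratio of 2035, with an exact 95% counting interval of 362 to 80700. miR-605-3p had 92 counts over the short RNA libraries and 3 over the total RNA libraries, a ratio of 217 (71.9 to 1070). Both were counted in every short RNA library, at more than 10 counts each.

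miR-221-5p, the passenger of the abundant miR-221-3p, had 876.9, 690.7 and 698.7 CPM in short RNA and 3.65, 4.49 and 3.07 CPM in total RNA (189-fold higher). miR-4488, miR-3648, miR-1290 and miR-4659a-3p had 31 to 56 counts over the short RNA libraries and 2 counts each over the total RNA libraries, for ratios of 109.5 to 197.9. miR-103a-2-5p, from an intron of PANK2, averaged 114.4 ± 21.95 CPM in short RNA and 2.30 ± 0.673 CPM in total RNA. The fitted fold changes of miRNAs with 3 or fewer counts depend on the prior count and are not given.

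The largest decreases held guide and passenger strands alike. miR-21-3p, the passenger of miR-21, had no count in any short RNA library, against 485, 1064 and 581 counts in the total RNA libraries. Set against 3 counts over the group, it was at least 100.5-fold lower in short RNA. Its guide miR-21-5p, known from many tumours, averaged 304.3 CPM in short RNA and 485.4 CPM in total RNA, so the strands of this hairpin differed to very unequal degrees. miR-301b-3p also had no count in short RNA, against 134, 250 and 193 counts in total RNA, and was at least 27.2-fold lower.

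miR-345-5p averaged 25.1 ± 7.49 CPM in short RNA and 988.1 ± 27.3 CPM in total RNA. miR-1307-5p averaged 13.1 ± 9.92 CPM in short RNA and 557.2 ± 60.2 CPM in total RNA, while miR-548k averaged 18.2 ± 8.30 CPM in short RNA and 416.4 ± 13.4 CPM in total RNA. No library of one preparation reached the range of the other for these miRNAs. miR-3158-3p, miR-181c-5p, miR-18a-3p and miR-3607-3p had 1 to 3 counts over the short RNA libraries and 263 to 832 over the total RNA libraries. Their ratios, total over short RNA, were 24.9 to 100.6.

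Detection differed mostly on the side of the shallower libraries. In every library 305 miRNAs had a count. A further 118 had counts in each total RNA library and none in any short RNA library, and 4 had the reverse. Among those at 0 in short RNA, after miR-21-3p and miR-301b-3p, miR-548e-5p with 116, miR-449c-5p with 83 and miR-1286 with 74 counts over the total RNA libraries were the most counted. Of all miRNAs at 0 in total RNA, miR-187-5p had 15 counts over the short RNA libraries, miR-579-3p 12, miR-448 6 and miR-3126-3p 5. miR-216b-3p had 8, at 0, 3 and 5 per library, so it is not among the 4 counted in each short RNA library.

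Counts of called members in the families below stand beside 35.4% higher and 44.4% lower, 79.8% in all, among the 302 tested miRNAs. The conserved relatives miR-10, miR-125, miR-99 and miR-100, some of them from HOX clusters, had 6 of 7 tested members higher and 1 lower in short RNA, with a median log2 fold change of 1.58, against -0.18 for all tested. They held 75.5% ± 0.470 of counts in short RNA and 53.9% ± 1.495 in total RNA. miR-125b-5p averaged 1472 ± 260.0 CPM in short RNA and 124.3 ± 8.15 CPM in total RNA, whereas its close relative miR-125a-5p averaged 1012 ± 107.4 CPM in short RNA and 1822 ± 78.9 CPM in total RNA. Of the higher members, miR-10b-5p was higher with TMM scaling and lower with library size alone.

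Members with the seed ACCCGUA show how far sequences that differ at few bases came apart. From miR-99a-5p to miR-100-5p the change is U16A, counting from 1 at the 5′ end. miR-100-5p averaged 85.9 ± 8.97 CPM in short RNA and 3.01 ± 0.880 CPM in total RNA, a log2 fold change of 4.71 ± 0.34 SE beside 5.78 ± 0.10 SE for miR-99a-5p. From miR-99a-5p to miR-99b-5p the changes are A1C, U11A, U16C and U21C. miR-99b-5p averaged 10410 ± 1277 CPM in short RNA and 3482 ± 277.1 CPM in total RNA, a log2 fold change of 1.58 ± 0.08 SE. The most counted member was thus miR-99a-5p in each short RNA library and miR-99b-5p in each total RNA library. Reads that match several relatives could be split in the authors' counting, so separate values of near-identical members are uncertain.

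The miR-148 and miR-152 family, known for roles in liver metabolism and in DNA methyltransferase control, had 3 of 3 members higher in short RNA. The direction of miR-152-3p was fixed by its entry through short RNA alone. miR-148a-3p had 38900, 42190 and 45760 CPM in short RNA and 14430, 14560 and 15070 CPM in total RNA (2.88-fold). miR-148b-3p averaged 1400 ± 141.8 CPM in short RNA and 301.1 ± 17.5 CPM in total RNA. From miR-148a-3p to miR-148b-3p the changes are C9U and U10C.

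The miR-183, miR-96 and miR-182 cluster had 2 members higher and miR-182-5p close to equal. miR-96-5p averaged 734.7 ± 54.7 CPM in short RNA and 42.4 ± 3.56 CPM in total RNA (17.1-fold higher). miR-183-5p outnumbered miR-182-5p in each short RNA library, and miR-182-5p outnumbered miR-183-5p in each total RNA library. The order of these cluster mates was thus opposite in the preparations.

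The cluster in an intron of CLCN5 on chromosome X had 6 of 8 tested members higher in short RNA, 1 lower and 1 that did not pass, beside 35.4% higher and 44.4% lower among all tested. Its median log2 fold change was 3.16, against -0.18 for all tested. The direction of miR-500a-5p was fixed by its entry through short RNA alone. miR-501-3p averaged 1723 ± 163.8 CPM in short RNA and 193.4 ± 16.6 CPM in total RNA. miR-500a-3p averaged 1153 ± 88.5 CPM in short RNA and 129.1 ± 7.14 CPM in total RNA. The exception, miR-660-5p, averaged 49.7 ± 10.6 CPM in short RNA and 200.4 ± 4.02 CPM in total RNA. miR-501-3p and miR-502-3p are near-identical, so reads could be shared between them.

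The miR-181 family, known from T cell development, had 4 of 4 members lower in short RNA, with a median log2 fold change of -3.52. The direction of miR-181c-5p was fixed by its entry through total RNA alone. miR-181a-5p had 314.5, 272.0 and 291.6 CPM in short RNA, against 8172, 8085 and 8176 CPM in total RNA (27.9-fold lower). miR-181b-5p averaged 633.3 ± 66.1 CPM in short RNA and 2988 ± 146.0 CPM in total RNA. miR-181b-5p was above miR-181a-5p in each short RNA library and below it in each total RNA library. From miR-181a-5p to miR-181b-5p the changes are A9U, C10U and A21G.

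The miR-130, miR-301 and miR-454 family also had 4 of 4 tested members lower in short RNA. Its median log2 fold change was -3.66, or -3.61 with miR-301b-3p at its bound. The direction of miR-301a-3p and miR-301b-3p was fixed by their entry through total RNA alone. miR-130b-3p averaged 104.5 ± 19.1 CPM in short RNA and 577.7 ± 40.8 CPM in total RNA. miR-301a-3p averaged 14.6 ± 1.80 CPM in short RNA and 428.3 ± 31.0 CPM in total RNA. The miR-30 family had 3 of 5 members lower and 2 that did not pass, and the miR-378 family 2 of 2 lower, beside 44.4% lower among all tested. With a mean of at least 50 counts the calls of miR-30c-5p (edgeR adjusted p = 0.325) and miR-378c (edgeR adjusted p = 0.0509) were lost. miR-378a-3p, from an intron of PPARGC1B, averaged 4181 ± 126.7 CPM in short RNA and 7805 ± 327.7 CPM in total RNA.

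**Figure D3:**
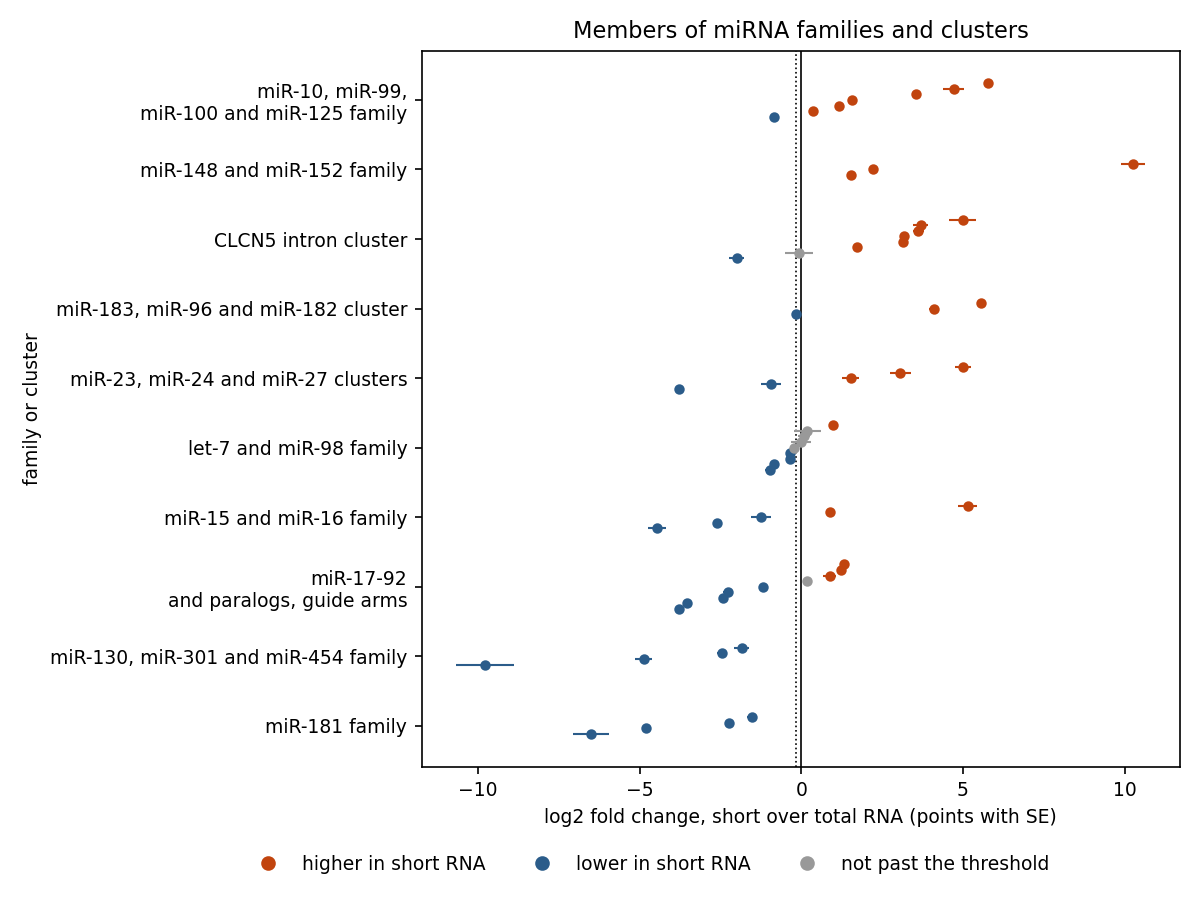
Log2 fold changes of short over total RNA (points, with SE) for the tested members of 10 families and clusters. The solid line is 0 and the dotted line the median of all 302 tested miRNAs, -0.18. The miR-148 and miR-152 family lies to the right and the miR-181 and miR-130 families to the left, while the miR-15 and miR-17-92 groups spread to both sides; calls near 0, such as miR-10b-5p, miR-182-5p and let-7a-5p, change sign with the scaling or the count minimum.

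The miR-17-92 cluster and its paralogs, which promote proliferation, had 3 of 9 tested guide arms higher, 5 lower and 1 that did not pass, near the shares of all tested miRNAs (35.4% higher, 44.4% lower). The 13 listed guides together held 4.86% ± 0.136 of counts in short RNA and 19.3% ± 0.979 in total RNA. miR-92a-3p had 25310, 25970 and 24790 CPM in short RNA, against 138100, 141900 and 131500 CPM in total RNA (5.41-fold lower). miR-25-3p, with the same seed, had 26040, 26120 and 27550 CPM in short RNA, against 11360, 11700 and 11030 CPM in total RNA. From miR-92a-3p to miR-25-3p the changes are U1C, C14U, C18U and U22A. In short RNA these seed mates were thus counted about alike, with miR-25-3p slightly above in each library, whereas miR-92a-3p was far above in each total RNA library.

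miR-17-5p averaged 188.8 ± 26.6 CPM in short RNA and 2648 ± 53.1 CPM in total RNA, while miR-20a-5p averaged 450.3 ± 131.2 CPM in short RNA and 5283 ± 287.4 CPM in total RNA. miR-106b-5p, with the same seed AAAGUGC, averaged 190.2 ± 54.2 CPM in short RNA and 103.9 ± 7.27 CPM in total RNA, a call that was lost with library size alone (edgeR adjusted p = 0.0761). miR-19a-3p, of another seed but from the same primary transcript as miR-17, averaged 1561 ± 218.8 CPM in short RNA and 622.4 ± 89.0 CPM in total RNA. Products of a single primary transcript thus differed in opposite directions.

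The miR-15 and miR-16 family, which restrains the cell cycle, had 2 members higher and 3 lower in short RNA. miR-16-5p averaged 2617 ± 157.0 CPM in short RNA and 15940 ± 729.3 CPM in total RNA. miR-15a-5p averaged 22.3 ± 19.0 CPM in short RNA and 463.6 ± 44.7 CPM in total RNA, whereas miR-15b-5p averaged 1476 ± 27.4 CPM in short RNA and 800.1 ± 45.2 CPM in total RNA. miR-503-5p averaged 278.3 ± 60.1 CPM in short RNA and 6.87 ± 4.13 CPM in total RNA, and its direction was fixed by its entry through short RNA alone. In the clusters of miR-23, miR-24 and miR-27 the 2 miR-27 members were lower, miR-27a-3p not with a minimum of 50 counts on average, and the other 3 tested members higher. Of these, miR-23a-3p entered through short RNA alone, which fixed its direction.

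miR-23a-3p averaged 338.4 ± 66.1 CPM in short RNA and 10.9 ± 2.07 CPM in total RNA. miR-27b-3p averaged 435.3 ± 26.1 CPM in short RNA and 5965 ± 479.6 CPM in total RNA. The change from miR-27b-3p to miR-27a-3p is U19C, yet the log2 fold changes were -3.78 ± 0.10 SE for miR-27b-3p and -0.95 ± 0.31 SE for miR-27a-3p. A further pair that differs at a single base is miR-103a-3p and miR-107, with G22C from miR-103a-3p to miR-107. miR-107 averaged 28.9 ± 8.53 CPM in short RNA and 437.8 ± 30.0 CPM in total RNA, while miR-103a-3p averaged 2576 ± 200.7 CPM in short RNA and 3250 ± 84.3 CPM in total RNA, and its difference changed sign with a mean of at least 50 counts.

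The let-7 and miR-98 family, which represses growth genes in differentiated cells, differed little by comparison. Of 9 members, 1 was higher, 4 were lower and 4 did not pass, with a range of log2 fold changes from -0.97 to 0.96. let-7f-5p had 6901, 6583 and 6883 CPM in short RNA, against 3136, 3710 and 3581 CPM in total RNA. let-7a-5p, from which it differs at a single base (A12G from let-7f-5p to let-7a-5p), had 3160, 3514 and 3505 CPM in short RNA and 4271, 4635 and 4072 CPM in total RNA. The main let-7 was let-7f-5p in every short RNA library and let-7a-5p in every total RNA library. The call for let-7a-5p, and that for let-7g-5p, changed sign with a minimum of 50 counts on average.

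Sums over seeds keep shared reads of relatives within a total. Of 214 seed totals tested, 174 (81.3%) passed, 84 (39.3%) higher and 90 (42.1%) lower in short RNA, and with library size alone 67 were higher and 112 lower. Only entries with a RefSeq sequence, 2281 of the 2588, could be summed, and these held 82.3% of counts in short RNA and 80.5% in total RNA. The seed AUUGCAC of miR-25 and miR-92 fell by 1.52 on the log2 scale, although its members split. CAGUGCA of miR-148 and miR-152 was higher by 1.60 and ACCCGUA of miR-99 and miR-100 by 2.96.

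Lower totals were those of AGCAGCA (miR-15 and miR-16) at -2.01, AAAGUGC (miR-17) at -2.31 and ACAUUCA (miR-181) at -3.41 on the log2 scale. Each of these 6 totals passed the test. Differences of this size thus remained when members were summed. The totals of let-7 (GAGGUAG, 0.26), of miR-26 (UCAAGUA, 0.16) and of miR-221 and miR-222 (GCUACAU, 0.18) were called higher with TMM scaling and were negative with library size alone.

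Each hairpin can give a -5p and a -3p product, and their ratio within a library does not depend on scaling. Of 106 pairs with at least 20 counts per arm over the 6 libraries, 70 (66.0%) had an arm balance that differed between preparations. In short RNA 38 (35.8%) had more 5p and 32 (30.2%) more 3p. An arm could reach the minimum through a single preparation, which favours a direction of the shift. Among the 100 pairs that had a count of either arm in every library, 73 kept the same major arm in all 6. The share of the minor arm over all pairs was 0.944% ± 0.0595 in short RNA and 1.16% ± 0.0640 in total RNA.

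The major arm was opposite in every library for 10 pairs. In short RNA, 3 of these had 5p as the major arm. miR-374a had 80.4% ± 3.06 5p in short RNA and 13.98% ± 1.13 in total RNA. miR-151a had 61.1% ± 2.92 5p in short RNA and 40.5% ± 1.63 in total RNA, from at least 574 counts of each arm in every library. The other such pair was miR-374b, whose 5p arm overlaps miR-374c-3p on the opposite strand with like counts, so its values are uncertain.

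The remaining 7 had 3p as the major arm in short RNA. miR-152 had no 5p count and 110, 107 and 71 3p counts in short RNA, against 17, 15 and 14 5p counts and 1, 0 and 0 3p counts in total RNA. miR-1307 had 5, 1 and 2 5p counts and 11, 21 and 15 3p counts in short RNA, against 537, 1156 and 789 5p counts and 154, 312 and 195 3p counts in total RNA. miR-140, best known from cartilage, had 2.08% ± 3.61 5p in short RNA and 64.4% ± 8.83 in total RNA.

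miR-455 had 33.8% ± 15.6 5p in short RNA and 93.3% ± 3.31 in total RNA. miR-330, miR-605 and miR-3074 completed the set, with mean 5p shares of 2.56% to 9.52% in short RNA and 62.6% to 87.5% in total RNA. Counts per library were under 100 for both arms in miR-140, miR-455, miR-330, miR-605 and miR-3074. miR-3074 overlaps miR-24 on the opposite strand.

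Past these switches, the balance shifted most for arms that were rare in one preparation. miR-221 had 11.5%, 9.82% and 10.8% 5p in short RNA, against 0.0548%, 0.0694% and 0.0507% in total RNA. In log2 terms the shift to 5p was 7.58 ± 0.24 SE (edgeR adjusted p = 5.81e-114). miR-17 had 59.4%, 58.3% and 44.6% 5p in short RNA, against 97.4%, 97.2% and 97.3% in total RNA. In short RNA, then, the guide and passenger of miR-17 were counted about as often, at 41, 49 and 29 5p counts and 28, 35 and 36 3p counts.

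miR-21, with no -3p count in short RNA, had 50.7% ± 1.90 5p in total RNA. miR-99a and miR-183 had a single 3p count each over the short RNA libraries, while in total RNA the 5p share was 97.6% ± 0.412 for miR-99a and 99.2% ± 0.235 for miR-183. miR-22 had 10.8% ± 10.1 5p in short RNA, from 4 counts of 5p over the libraries, and 0.119% ± 0.0413 in total RNA. miR-1285, miR-503 and miR-3613 also shifted to 5p, and miR-23a and miR-874 to 3p, each with fewer than 100 counts in every short RNA library for either arm, and the call for miR-3613 was lost without any of 3 single libraries.

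Some further pairs kept their major arm. miR-30a had 9.83% ± 0.226 5p in short RNA and 30.3% ± 2.33 in total RNA. miR-28 had 16.7% ± 3.16 5p in short RNA and 4.86% ± 0.576 in total RNA. miR-99b, by contrast, had 99.1% ± 0.260 5p in short RNA and 99.1% ± 0.124 in total RNA. These 3 pairs were chosen after their values were seen, to show the range.

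**Figure D4:**
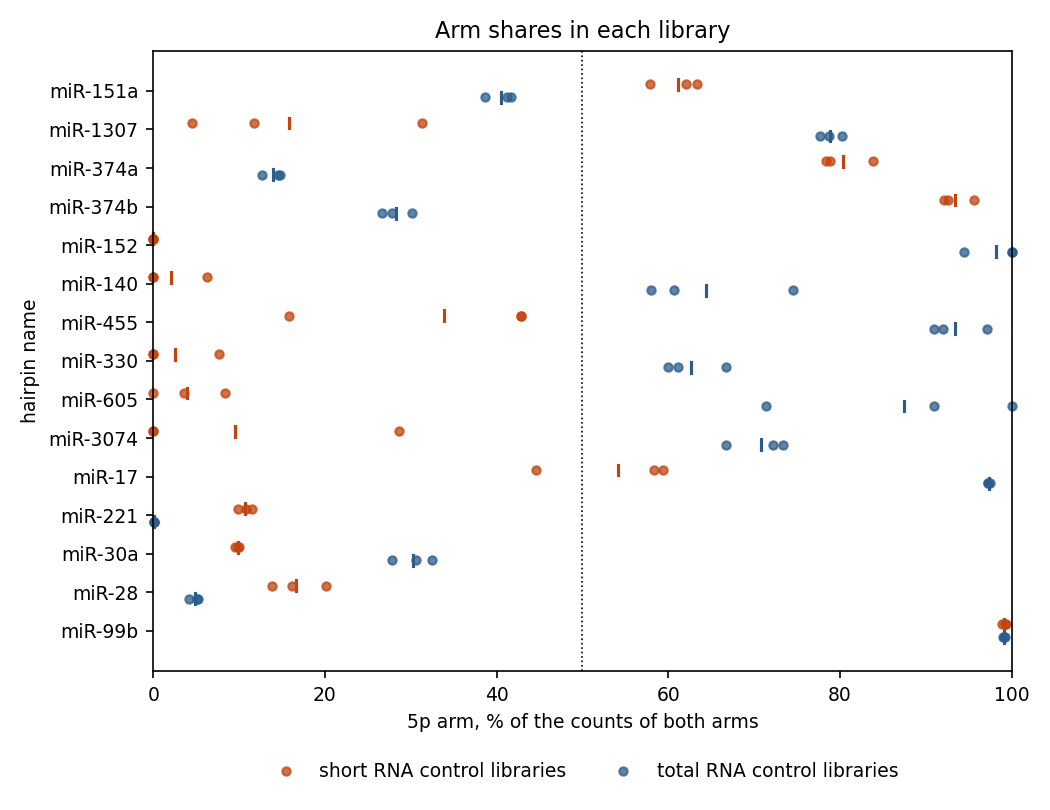
Share of the 5p arm among the counts of both arms (%) for the 10 pairs whose major arm is opposite in every library and for miR-17, miR-221, miR-30a, miR-28 and miR-99b, with a point per library and a bar at each group mean. The dotted line marks 50%, which the 10 pairs at the top cross and miR-99b, at 99.1% in both preparations, does not.

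For 55 hairpins both arms passed the count filter and were tested on their own. In 8 both were higher and in 14 both lower in short RNA. In 6 the 5p was higher and the 3p lower, and in 5 the reverse. Some of these arms, such as miR-21-3p, entered the test through a single preparation, which fixed their direction. Of the 70 called pairs, 33 had moved in short RNA toward the arm that was major in total RNA.

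Some of the short RNA counts belonged to entries that overlap other noncoding RNAs, such as rRNA, tRNA and snoRNA fragments. The entries of that list held 1.48% ± 0.0976 of counts in short RNA and 0.175% ± 0.0201 in total RNA. Of 15 tested, 7 were higher, 3 lower and 5 did not pass, beside 35.4% higher and 44.4% lower among all tested. The direction of miR-1291, miR-3648, miR-663a and miR-7641 was fixed by their entry through short RNA alone. That of miR-3607-3p was fixed by its entry through total RNA alone. miR-4454, whose sequence resembles a tRNA end, had 14450, 16330 and 15400 CPM in short RNA, against 148.6, 166.8 and 140.3 CPM in total RNA. It made up most of the list's counts in short RNA.

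miR-1246, which matches part of the U2 small nuclear RNA, averaged 828.5 ± 167.0 CPM in short RNA and 28.2 ± 3.30 CPM in total RNA. miR-1291, which lies within the snoRNA gene SNORA2C, averaged 198.3 ± 19.2 CPM in short RNA and 2.40 ± 1.54 CPM in total RNA. Lower in short RNA were miR-3651, miR-5701 and miR-3607-3p, of which miR-3651 averaged 64.8 ± 33.2 CPM in short RNA and 357.4 ± 140.5 CPM in total RNA. None of the 23 listed mirtrons, which are spliced introns that skip Drosha, had enough counts to be tested.

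Some entries on opposite strands of the same site had like counts and others did not. miR-103a-3p had 588, 580 and 440 counts in short RNA, and miR-103b, annotated antisense to it, 589, 569 and 413. In total RNA miR-103a-3p had 3671, 6398 and 4184 counts and miR-103b 3627, 6394 and 4428. miR-423-5p and miR-3184-3p were close in the same way in total RNA, at 1359, 2200 and 1646 counts for miR-423-5p and 1308, 2233 and 1552 counts for miR-3184-3p. miR-3184-5p, by contrast, had 5.58% of the counts of its opposite-strand partner miR-423-3p in short RNA and 5.97% in total RNA. The other pairs with both entries tested were miR-550b-2-5p, with 1, 0 and 2 counts beside 2, 1 and 2 of miR-550a-3p in short RNA and at 102% of it in total RNA, and miR-374b-5p, at 123% of miR-374c-3p in short RNA and 84.1% in total RNA. The sources used here do not give whether the authors' counting used strand, so the values of overlapping entries are uncertain. In addition 54 of the 263 tested entries with a sequence were within 2 edits of another counted entry.

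Median differences varied with length, GC content, first base and last base of the mature sequence, described over 263 tested miRNAs with a sequence. Some of these miRNAs entered the test through a single preparation. The 64 that end in G had a median log2 fold change of 0.74, and 50.0% were called higher. The 53 that end in C had a median of -1.25, and 58.5% were called lower. Those that end in A (58) or U (88) had medians of 0.14 and -0.41. By length, the 34 of 21 bases had a median of 0.77, the 147 of 22 bases -0.35 and the 52 of 23 bases -0.64. The 13 of 20 bases or less had 0.28 and the 17 of 24 or more -0.59, so the medians did not fall steadily with length. By first base, medians were 0.49 for G (13), -0.04 for A (70), -0.36 for U (115) and -0.66 for C (65).

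By GC content, medians were -0.59 under 40% (56), 0.12 at 40 to under 50% (77), -0.325 at 50 to under 60% (77) and -0.79 at 60% or more (53). Pearson's r with length was -0.18 and Spearman's rho -0.17. With GC content, whose medians did not change steadily, r was 0.003 and rho -0.05. Leaving out the noncoding RNA entries left r with length at -0.18. The spread within a class was wide: the middle 50% of those that end in G ran from -0.99 to 3.04. These features share the same libraries, and their part in the differences was not tested.

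Marker miRNAs of tissues were read as a check of the label. Of 4 kidney markers, all were counted in every library and miR-192-5p was the main one, at 646.4 ± 124.8 CPM in short RNA and 3229 ± 200.6 CPM in total RNA. Of the kidney markers 3 were lower in short RNA and miR-194-5p did not pass, and the calls of miR-204-5p and miR-215-5p, at 1 to 5 counts per short RNA library, did not hold in every setting. The direction of miR-215-5p was also fixed by its entry through total RNA alone. Markers of liver had no count, and muscle markers had 0 to 5 counts per library. Of 7 blood cell markers miR-486-5p alone had a count, lower in short RNA at 542.2 ± 69.2 CPM than in total RNA at 2152 ± 36.8 CPM, and the defining erythroid miR-451a was at 0. Of the 9 embryonic stem cell markers none had a count in short RNA. In total RNA miR-373-3p had 2, 1 and 5 counts, miR-372-3p 1, 0 and 0 and miR-302b-3p 0, 0 and 1.

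miR-9-5p, a neuronal miRNA, averaged 1604 ± 159.9 CPM in short RNA and 686.0 ± 26.6 CPM in total RNA. miR-124-3p, the most specific neuronal marker of the list, had 2, 0 and 0 counts in short RNA and 0, 0 and 1 in total RNA. Of 5 tested neuronal markers 4 were higher in short RNA, beside 35.4% of all tested. Of these 4, miR-9-3p entered the test through short RNA alone, which fixed its direction. miR-218-5p did not pass, although it was called lower with library size alone (edgeR adjusted p = 4.16e-05). In the remaining marker lists, miR-200c-3p (epithelium), miR-143-3p (fibroblasts) and miR-126-3p (endothelium) were called higher in short RNA, each from at most 21 counts in a short RNA library, and the call for miR-126-3p was lost with library size alone. The direction of miR-200c-3p and miR-143-3p was fixed by their entry through short RNA alone. Most other members of these lists were not tested for lack of counts. Of these, miR-141-3p (epithelium) had no count in short RNA, against 8, 14 and 5 counts in total RNA, and miR-199a-3p (fibroblasts) had none in short RNA, against 1, 3 and 3 in total RNA. miR-145-5p (smooth muscle) likewise had no count in short RNA, against 2, 0 and 1 in total RNA.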

How the data were processed

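Small RNA of control siRNA HEK293T cells had been sequenced from short RNA (3 libraries) and total RNA (3 libraries). The authors deposited whole-number counts per mature miRNA, with 2588 entries, and those 6 columns of counts were used as deposited. The other 34 columns of per-library and comparison values in the table were not used. Per the submitters' processing notes, Bowtie2 was used for run 1 and cutadapt, Bowtie2, DESeq and DESeq2 for run 2. The sources used here do not give aligner settings, genome build, miRNA annotation, use of strand or the handling of reads with several matches.

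Counts were tested in R 4.3.3 with edgeR 4.0.16 (TMM scaling, filterByExpr with a minimum count of 10 and a minimum total of 15, quasi-likelihood F test, two-sided, Benjamini-Hochberg threshold of 0.05), with SE taken from the fold change and F. Arm balance was an arm by preparation term with a library block, for pairs of the same name with at least 20 counts per arm. The model was checked on simulated counts. Sequences and hairpin positions came from RefSeq on GRCh38.p14, host genes from GENCODE 29. Named miRNAs were the 15 most abundant, the 12 largest changes each way, the 4 most abundant tested members of each list, the 8 largest arm shifts each way, the 8 largest seed totals and the 5 most counted at 0 in one preparation. Called members of some lists, seed totals of the printed families and some arm and opposite-strand pairs were added after their values were seen. Members, lists and rules were chosen with earlier results of these data known. Alternatives were other scalings and filters, DESeq2 1.42.0, limma 3.58.1 on log2 arm ratios, a replicate block and each library left out.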

Additional observations from a re-analysis of the deposited data

How the results depend on the processing

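Of the named arm pairs, miR-99b, which was not called, changed sign (0.016 with limma, with or without the replicate block, and -0.15 to 0.31 leaving out single libraries). The other named pairs kept their direction in each alternative that gave a value, and 4 values fell short of the threshold, all of miR-3613: with a minimum of 6 counts per arm, and without short RNA replicate 1 (adjusted p = 0.2), short RNA replicate 2 (0.102) or total RNA replicate 1 (0.0586). For named miRNAs, 1478 of the alternative values had the direction and call of the reported one, 32 had the other sign, 19 gained a call and 24 lost it. For named seed totals 89 had the same direction and call, 9 the other sign and 19 lost the call.

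With no filter, 124 miRNAs were higher and 211 lower in short RNA, of 988 tested, and with library size alone 95 were higher and 160 lower. With a mean of at least 50 counts, 149 of 171 were called (70 higher, 79 lower), and 104 seed totals (41 higher), since fewer were tested. With at least 100 counts per arm, 39 of 47 pairs were called, 22 to 5p and 17 to 3p. Counting miRNAs from 5 counts on, the difference at common depth was -25.4, against -69.9 miRNAs.

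The reversals were of small log2 differences, and the cause was not tested. With library size alone they were -0.12 for miR-10b-5p, -0.38 for miR-26a-5p, -0.24 for miR-30d-5p, -0.28 for miR-320a, -0.10 for miR-194-5p and -0.41 for miR-126-5p. With no filter they were -0.14, -0.39, -0.25, -0.30, -0.11 and -0.42 for the same miRNAs in that order. With a mean of at least 50 counts they were 0.24 for miR-182-5p, 0.38 for miR-221-3p, 0.052 for let-7a-5p, 0.044 for let-7g-5p, 0.19 for let-7c-5p, 0.38 for miR-222-5p and 0.31 for miR-218-5p and 0.067 for miR-103a-3p. With upper quartile scaling miR-221-3p was at 0.051 and miR-222-5p at 0.054. Without the noncoding RNA entries miR-26a-5p was at -0.013 and miR-126-5p at -0.045, and without miR-10a-5p miR-126-5p was at -0.0063. For seed totals, library size alone gave -0.32 for GAGGUAG, -0.42 for UCAAGUA and -0.39 for GCUACAU, and no filter -0.074, -0.17 and -0.15 for these. UCAAGUA was at -0.0020 with RLE scaling and -0.0021 with DESeq2.

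Leaving out each library in turn gave 202 to 266 called miRNAs (90 to 115 higher, 112 to 151 lower), 57 to 70 arm pairs (30 to 38 to 5p, 25 to 32 to 3p) and 145 to 199 seed totals (69 to 88 higher, 74 to 111 lower). Single values ran from -0.041 to 0.095 for miR-26a-5p, -0.076 to 0.20 for miR-320a, -0.26 to 0.056 for miR-222-5p and -0.061 to 0.068 for miR-126-5p, and the UCAAGUA total from -0.0074 to 0.11. Single libraries also ended small calls: adjusted p was 0.0741 for miR-182-5p without total RNA replicate 1, 0.0629 for miR-204-5p without short RNA replicate 3, 0.103 and 0.117 for miR-215-5p without short RNA replicate 1 or 3, 0.131, 0.117 and 0.063 for miR-126-3p without short RNA replicate 1, short RNA replicate 2 or total RNA replicate 2, and at least 0.0973 for the let-7 total GAGGUAG without short RNA replicate 2 or 3 or total RNA replicate 1 or 3. The GCUACAU total was lost without any single library and the UCAAGUA total without any but short RNA replicate 2, where it was reversed. Upper quartile scaling ended the calls of miR-182-5p (0.299) and miR-215-5p (0.0514), and DESeq2 that of miR-215-5p (0.0688). Gained calls were those of miR-221-3p, let-7c-5p and miR-218-5p, lower with library size alone and with no filter, of miR-222-5p, lower with library size alone, of miR-26a-5p and miR-30d-5p, higher with upper quartile scaling and with a mean of at least 50 counts, and of miR-320a and miR-126-5p, higher with a mean of at least 50 counts. Leaving out the noncoding RNA entries also gained calls for miR-221-3p and let-7c-5p, leaving out miR-10a-5p for let-7c-5p, short RNA replicate 1 for let-7c-5p and miR-218-5p, and total RNA replicate 3 for let-7c-5p. The call of miR-106b-5p was lost with library size alone (0.0761) and with no filter (0.127), and that of miR-21-5p with a mean of at least 50 counts (0.0685). Deviations of same-numbered libraries correlated at -0.0670 to -0.000791, and those of differently numbered libraries at -0.0473 to 0.0711. Replicate numbers thus showed no pairing, but values this small cannot exclude it, since counting error also makes up the deviations. With a replicate block 237 miRNAs were called (105 higher, 132 lower), 171 seed totals and, by limma, 79 arm pairs. The short RNA libraries are the shallower, which limits what could be counted there.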

Other observations

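Of the miRNAs from HOX clusters, which specify position along the body axis, 5 of 9 tested were higher, 2 were lower and 2 did not pass, beside 35.4% higher and 44.4% lower among all tested. Among the lower, the direction of miR-615-5p was fixed by its entry through total RNA alone. miR-196b-5p averaged 3606 ± 117.8 CPM in short RNA and 809.8 ± 32.9 CPM in total RNA, and miR-196a-5p averaged 2526 ± 152.4 CPM in short RNA and 707.8 ± 59.8 CPM in total RNA. These near-identical miRNAs differ by C12A, from miR-196b-5p to miR-196a-5p and counted from the 5′ end, so how reads were split between them is uncertain. miR-615-3p, from the HOXC cluster, averaged 124.7 ± 38.8 CPM in short RNA and 413.0 ± 17.7 CPM in total RNA.

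Of the passenger arms of miR-17-92 and its paralogs, 3 of 6 tested were higher, 2 lower and 1 did not pass, beside the same shares of all tested. The lower arms, miR-18a-3p and miR-19a-5p, both entered through total RNA alone, which fixed their direction. Of the higher arms, miR-92a-1-5p lost its call with library size alone (adjusted p = 0.896, edgeR), with no filter (0.965) and without short RNA replicate 2 (0.0633). Together the list held 0.0892% ± 0.00630 of counts in short RNA and 0.0855% ± 0.00648 in total RNA. In the miR-29 family miR-29a-3p was higher, at 262.1 ± 32.4 CPM in short RNA and 102.7 ± 4.81 CPM in total RNA. miR-29c-3p was lower in short RNA by a call that was lost with upper quartile scaling (adjusted p = 0.0501, edgeR), with the replicate block (0.0512) and without short RNA replicate 1 (0.115). miR-222-3p averaged 1051 ± 141.3 CPM in short RNA and 305.7 ± 40.1 CPM in total RNA, while its cluster mate miR-221-3p differed by less than the spread between libraries after TMM scaling.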
